A study of Mus musculus with 8 samples.

Results

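The Sprouty and Spred genes were described in mouse satellite cells, which lie along muscle fibres as their stem cells, with and without muscle injury. The members are Spry1, Spry2, Spry3, Spry4, Spred1, Spred2 and Spred3, chosen by gene name, and each had 1 array probe of 60 bases. They are 7 of the 21244 genes with a named probe, and 4 of the 13431 genes bright enough to be tested. RNA was measured on 1-colour Agilent arrays. The injured group (n = 4 arrays) came from muscle 3 days after cardiotoxin, a venom component used to kill muscle fibres, and the basal group (n = 4 arrays) came from muscle with no injury. Both groups are labelled as male C57BL/6 mice aged 3 months, and in both the cells were sorted for integrin alpha 7 and against CD31, CD45, CD11b and Sca1. No transgene, mutation or other agent is named for either group, each array is labelled a biological replicate, and no pooling of animals is stated. The comparison asks which transcripts differ between cells the submitters call activated and quiescent.

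Sprouty and Spred proteins are feedback inhibitors of receptor tyrosine kinase signalling. A growth factor receptor activates Ras, Ras activates the kinases Raf, MEK and ERK, and ERK activity in turn raises the transcription of several Sprouty and Spred genes, whose proteins then restrain the same pathway. Sprouty proteins act through adaptors and ubiquitin ligases near the receptor, whereas Spred proteins carry neurofibromin, which switches Ras off, to the membrane. In mouse muscle Spry1 is known as a gene of quiescent satellite cells that is needed for a part of these cells to return to quiescence after injury.

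Levels are log2 processed signal minus the 75th percentile of the same array, so that 0 is the 75th percentile itself, and levels of different probes are not set against each other. Spots well above background made up 50.1% to 56.7% of the 59305 non-control spots of an array, and the number of arrays limits the precision. Each group was on a slide and a scan of its own, so group, slide and scan cannot be told apart. Across 10499 genes, which are not independent replicates, Pearson's r was 0.989 to 0.996 between injured arrays and 0.954 to 0.977 between basal arrays. All mice are labelled male, yet on injured replicates 2, 3 and 4 the female transcript Xist was at 6.37 to 6.57 and the Y-linked genes Ddx3y, Uty, Eif2s3y and Kdm5d were not above background. Injured replicate 1 had Xist at 1.72 and all 4 Y-linked genes above background. Among basal arrays Xist was above background on replicates 1 to 3, at 3.85, 2.15 and -1.12, and not on replicate 4, and Ddx3y was above background on all 4. Basal replicates 1 and 2 had all 12 endothelial markers above background, against 8 on basal replicates 3 and 4. The satellite cell markers Pax7 and Cdh15 were above background on all 8 arrays of both groups, whereas Myf5 was above it on none.

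The start regions of the member whose signal fell most and of one whose signal did not pass the test are shown, to set their sequences beside the values. RefSeq (GRCm38.p6) gave a window of 250 bases before and 50 after the start for 5 of the 7 members. Capitals mark matches, on either strand, to the motifs searched, which were Sp1 (GGGCGG), ETS (CCGGAAG), AP-1 (TGANTCA), E-box (CANNTG) and RBPJ (TGGGAA). No capital stretch below is shared by 2 motifs. The Spry1 window is chr3:37639697-37639996 on the plus strand and the Spred2 window is chr11:19924192-19924491 on the plus strand.
Spry1: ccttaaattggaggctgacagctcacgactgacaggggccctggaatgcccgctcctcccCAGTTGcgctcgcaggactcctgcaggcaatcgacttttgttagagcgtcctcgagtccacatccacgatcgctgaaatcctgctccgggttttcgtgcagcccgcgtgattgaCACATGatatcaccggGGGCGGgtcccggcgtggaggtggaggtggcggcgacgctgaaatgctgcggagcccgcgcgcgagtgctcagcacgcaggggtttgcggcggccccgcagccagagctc
Spred2: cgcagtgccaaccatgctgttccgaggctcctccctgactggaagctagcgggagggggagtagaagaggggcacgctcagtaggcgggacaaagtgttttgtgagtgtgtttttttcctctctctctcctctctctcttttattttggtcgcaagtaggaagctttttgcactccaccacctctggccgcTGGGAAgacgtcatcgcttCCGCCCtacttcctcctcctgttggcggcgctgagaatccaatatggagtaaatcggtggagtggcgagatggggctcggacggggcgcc

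The Spry1 window held E-boxes starting 190 and 76 bases before the start and an Sp1 match 60 bases before it. Spred2 held an RBPJ match 59 bases before the start and an Sp1 match 40 bases before it. Among 32851 promoters of the same length, 72.3% held an E-box, 35.7% an Sp1 match and 25.6% an RBPJ match, so these matches are common. The ETS and AP-1 letters, held by 8.86% and 7.81% of promoters, were in the windows of none of the 5 members. GC content was 64.3% for Spry1 and 57% for Spred2, against a median of 52.7% over all promoters.

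Spry1 was the only Sprouty gene well above background, and it was far lower in injured cells. Its probe lies at chr3:37543403-37543462 (mm9, plus strand; 35% GC). An mm9 gene annotation was not used here, so exons and untranslated regions are not assigned to probes. The level was -1.25, -1.74, -1.48 and -1.70 in the 4 injured arrays, against 1.94, 2.62, 2.87 and 2.48 in the 4 basal arrays. Every injured array was below every basal array, and both groups were well above background on all arrays. As processed signal the injured arrays read 55.6, 38.3, 44.2 and 32.1 units and the basal arrays 453, 795, 922 and 699 units.

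The difference was -4.02 ± 0.21 on the log2 scale (SE, n = 4 each), a 16.2-fold fall, with a 95% interval of -4.51 to -3.53 and an adjusted p of 5.76e-06 by limma over all genes tested. The background of this comparison is wide, since 60.1% of genes tested were called, 24.7% as lower, and in 23.2% of genes every injured array was below every basal array. A fall of at least the size of Spry1's was found in 168 genes, which is 1.25% of those tested. The fall was past the threshold in all 22 alternative settings, but it was smaller after normexp background correction, at -2.87 and -2.78, and in the authors' deposited table, at -2.16. In bulk samples fewer cells of a type and less RNA per cell cannot be told apart.

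Markers of other cells and of dissociation were read in the same contrast, in which 24.7% of genes tested were lower and 35.5% higher. The summed level of 20 dissociation stress genes, relative to the 75th percentile, was 192 to 213 in injured arrays and 1371 to 2937 in basal arrays. Of these 20 genes 19 fell while 0 rose, and Ier3 was bright enough for testing only in the basal group. The sum of 12 endothelial markers was 10.5 to 13.0 in injured arrays and 25.9 to 48.2 in basal arrays, with Cdh5 and Emcn above background on 0 injured and 2 basal arrays. The sum of 10 fibro-adipogenic progenitor markers was 7.44 to 10.6 in injured arrays and 60.6 to 92.2 in basal arrays, and Pdgfra and Cd55 were above background on none of the 8 arrays.

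Pericyte and smooth muscle markers summed to 936 to 1071 in injured arrays and 1219 to 1400 in basal arrays. Most of this sum is the bright Mcam probe, which fell by 0.32. Its mean log2 level was 9.91 in injured arrays and 10.24 in basal arrays. Rgs5 and Abcc9 were above background on 0 injured and 4 basal arrays. Of the pericyte and smooth muscle markers 7 of 10 tested were lower and 0 higher. Of the fibro-adipogenic progenitor markers 5 of 6 were lower and 0 higher, and of the endothelial markers 3 of 10 were lower and 1 higher. Among the lower endothelial markers Tek was called in 21 of 21 alternatives, Cldn5 in 13 of 21 and Robo4 in 8 of 20. The higher one, Kdr, was called in 11 of 21 and was at -1.06 with the mean of all its probes. Over all genes tested 24.7% were lower and 35.5% higher. The lower genes Rgs5, Abcc9, Pdgfrb, Kcnj8, Dcn, Col1a1, Dpt and Robo4 were bright enough for testing only in the basal group. These counts are a description. Blood cell markers summed to 496 to 587 in injured arrays and 474 to 543 in basal arrays. Most of this sum is the bright probe of Itgam, the gene of CD11b, which was not called. Its mean log2 level was 8.92 in injured arrays and 8.82 in basal arrays, although the cells were sorted against CD11b. Of the other antigens sorted against, Ptprc (CD45) was above background on 4 injured and 4 basal arrays. Pecam1 (CD31) was above it on 4 injured and 3 basal arrays, and Ly6a (Sca1) on 2 injured and 2 basal arrays. Of 10 tested blood cell markers 3 were higher and 1 lower, and Laptm5 and Tyrobp were bright enough for testing only in the injured group. Laptm5 rose by 3.97 and was above background on 4 injured and 1 basal arrays, Tyrobp rose by 1.99 and was above it on 4 injured and 2 basal arrays, Cd3e rose by 0.37, and Csf1r fell by 0.30. In the authors' deposited table Tyrobp was at -1.43, Cd3e at 0.0097 and Csf1r at 0.51, none of them called. The Cd3e call was lost in 13 of 21 alternatives, and Csf1r was at 0.14 with the mean of all its probes. The satellite cell markers themselves summed to 119 to 148 in injured arrays and 266 to 356 in basal arrays. Of 11 tested, 7 were lower, 2 higher and 2 (Des and Cdh15) not called, and Calcr was bright enough for testing only in the basal group. The higher ones were Itga7, the integrin of the sort, at 1.13 and Myod1 at 0.77. The part of these cells in the Spry1 difference was not tested. Spry1 was at -4.22 without basal replicates 1 and 2 and at -3.73 without injured replicates 2, 3 and 4, each with an adjusted p under the threshold of 0.05.

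The other Sprouty probes were not well above background. Spry2 (probe at chr14:106291845-106291904, minus strand), which binds the ubiquitin ligase Cbl, was at -4.37 to -2.82 in injured arrays and -4.06 to -2.81 in basal arrays. Spry3 (X_random, 101429 to 101488, minus strand), the least studied member, was at -5.18 to -4.56 in injured arrays and -5.07 to -4.73 in basal arrays. Spry4 (chromosome 18, 38745923 to 38745982, minus strand), an inhibitor of Ras activation by FGF and VEGF receptors, was at -5.32 to -4.73 in injured arrays and -5.02 to -4.01 in basal arrays. All 3 probes were below that mark on all 8 arrays, so none was tested and no fold is given. With no filter on dim probes their adjusted p was 0.846 for Spry2, 0.762 for Spry3 and 0.155 for Spry4.

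The authors' deposited table holds other values for Spry2. There it was at 8.98, 8.10, 8.37 and 8.04 in injured columns and 7.69, 10.51, 11.39 and 10.11 in basal columns, on a log2 scale whose column medians were 8.06 to 8.15. Basal replicate 1 was the lowest of all 8 columns and the other 3 basal columns the highest, and the difference of -1.55 had an adjusted p of 0.165 with no filter. That table and the scanner files do not match closely: Pearson's r over 55651 probes between a column and its own array was 0.577 to 0.952. In 5 of 8 columns the own array was the closest one. The cause was not tested.

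**Figure D1:**
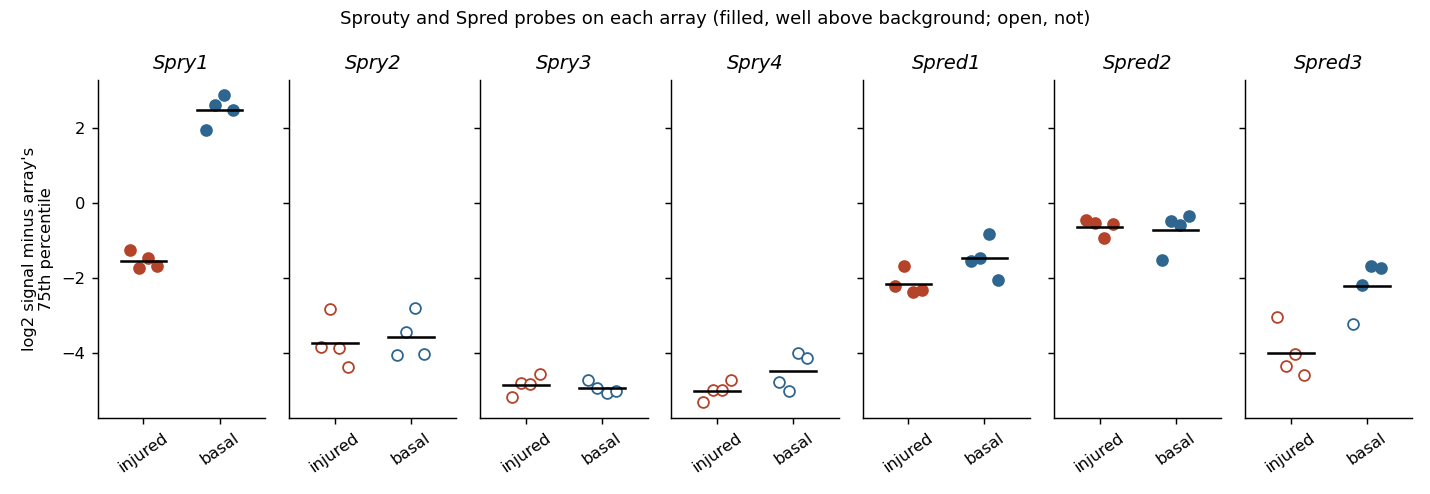
Level of each Sprouty and Spred probe on each array (log2 processed signal minus the array's 75th percentile), injured on the left and basal on the right of each panel; bars are group means, and filled points are well above background. Injured Spry1 values of -1.74 to -1.25 lie below all basal values, 1.94 to 2.87, while the Spry2, Spry3 and Spry4 points are all open.

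Spred3 was the other called member, with a weaker basis. Spred3, a Spred protein best known in mouse brain, has its probe at chr7:29944517-29944576 (mm9, minus strand). Its level was -3.05, -4.35, -4.04 and -4.58 in injured arrays, none above background, and -3.24, -2.19, -1.68 and -1.74 in basal arrays, of which 3 were above background. Injured replicate 1 was above basal replicate 1, so the groups overlap. The difference was -1.79 ± 0.43 (SE, n = 4 each; adjusted p = 0.00623 by limma).

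Because the injured group holds only a bound, Spred3 is given as at least 1.46-fold lower. It passed the filter only through the basal group. The call was lost without injured replicates 2, 3 and 4, at -0.83 (adjusted p = 0.396). After normexp the difference was -0.32 and -0.30, and in the authors' deposited table it was 0.43 with an adjusted p of 0.387. Over 21 alternatives the adjusted p was 0.00141 to 0.396.

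Spred1 was lower on average and did not pass the test. Spred1 (probe at chr2:117004952-117005011, mm9, plus strand) binds neurofibromin, and its loss in humans causes Legius syndrome. It was at -2.23, -1.69, -2.38 and -2.33 in injured arrays and at -1.56, -1.46, -0.84 and -2.07 in basal arrays. Injured replicate 2 and basal replicate 4 cross between the groups. The difference was -0.67 ± 0.27, with a 95% interval of -1.29 to -0.06 and an adjusted p of 0.0568.

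Spred1 lies close to the threshold, so the call depends on the arrays, scaling and filter used. It passed without injured replicate 2 at -0.83 (adjusted p = 0.0359), without basal replicate 4 at -0.87 (adjusted p = 0.0170) and with median scaling at -0.75 (adjusted p = 0.0377). It also passed when only genes above background on all arrays were tested (adjusted p = 0.0444). In the authors' deposited table the difference was 0.14 (adjusted p = 0.764).

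Spred2 (probe at chr11:19922416-19922475, mm9, plus strand), which restrains ERK activation by growth factor receptors, did not pass the test. It was at -0.47, -0.55, -0.95 and -0.57 in injured arrays and at -1.53, -0.47, -0.58 and -0.34 in basal arrays. Basal replicate 1 was the lowest of the 8 arrays and basal replicate 4 the highest, so the groups overlap. The difference was 0.09 ± 0.26, with a 95% interval of -0.50 to 0.69 and an adjusted p of 0.770. Differences within that interval are not shown to be absent. Without basal replicate 1 the difference was -0.17 (adjusted p = 0.355), and in the authors' deposited table it was 1.12 (adjusted p = 0.0637).

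Counting the family, 2 of 4 tested members fell and 0 rose, and in 1 of 4 the groups did not overlap. In all genes tested 24.7% fell and 35.5% rose, and in 57.2% of 13422 genes the groups did not overlap, with injured below in 23.2%. Spred3 had to be high in basal cells to be tested at all, so the count is a description, and the other 3 members were too dim to be tested.

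**Figure D2:**
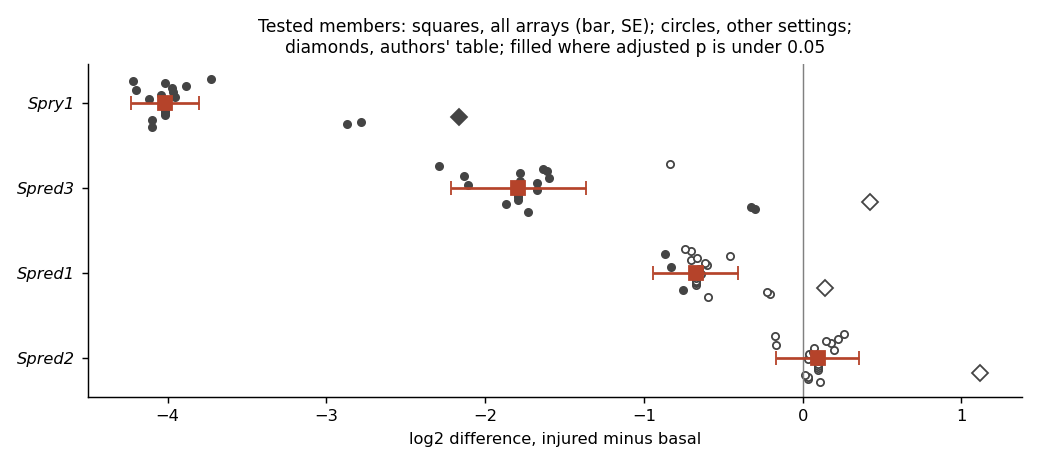
Log2 difference, injured minus basal, of the 4 tested members under the alternative settings; squares are the fit of all arrays with moderated SE, circles the alternatives, diamonds the authors' deposited table, and filled points have an adjusted p under 0.05. Spry1 lies between -4.22 and -2.16 throughout, whereas Spred2 lies on both sides of 0.

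Other probes without a gene name lie near the member probes, and they were looked at after member values were seen. There were 8 within 5000 bases of a member's probe, of which 6 were bright enough for a fit of each probe on its own, in which 56.9% of 31313 probes were called. Beside Spred1, on the same strand and 895 bases away, 1 probe read 0.27, 0.36, 0.34 and -0.04 in injured arrays and 0.96, 0.99, 0.80 and 1.03 in basal arrays. All 4 injured arrays were lower, and the difference was -0.72 ± 0.13 (adjusted p = 0.00209 by limma). The annotation used here does not name this probe, so it is not taken for Spred1. The 1 unnamed probe near Spred3 was above background on none of the 8 arrays.

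Downstream of the Spry1 probe, on its strand, 3 unnamed probes lie 60 bases apart and did not all give the same call. The probe at 3211 bases was above background on 0 injured and 4 basal arrays and at least 5.66-fold lower (adjusted p = 1.36e-05 by limma). The probe at 3271 bases was also above background on 0 injured and 4 basal arrays, and it was at least 2.49-fold lower. The probes at 3211 and 3271 bases passed the filter only through the basal group, so their calls are a description. The probe at 3331 bases was above background on all 8 arrays, at 3.24, 3.23, 3.25 and 3.65 in injured arrays and 3.58, 3.39, 3.43 and 3.71 in basal arrays, and its difference of -0.19 ± 0.15 was not called (adjusted p = 0.307).

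On the other strand, a probe at 4512 bases was at least 6.72-fold lower, with 0 injured and 4 basal arrays above background. Another at 4746 bases was at least 1.03-fold lower, with 0 injured and 3 basal arrays above background, and the one at 4667 bases was not tested. The probes at 4512 and 4746 bases also passed the filter only through the basal group. Whether these probes read the same transcript as Spry1 was not tested.

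**Figure D3:**
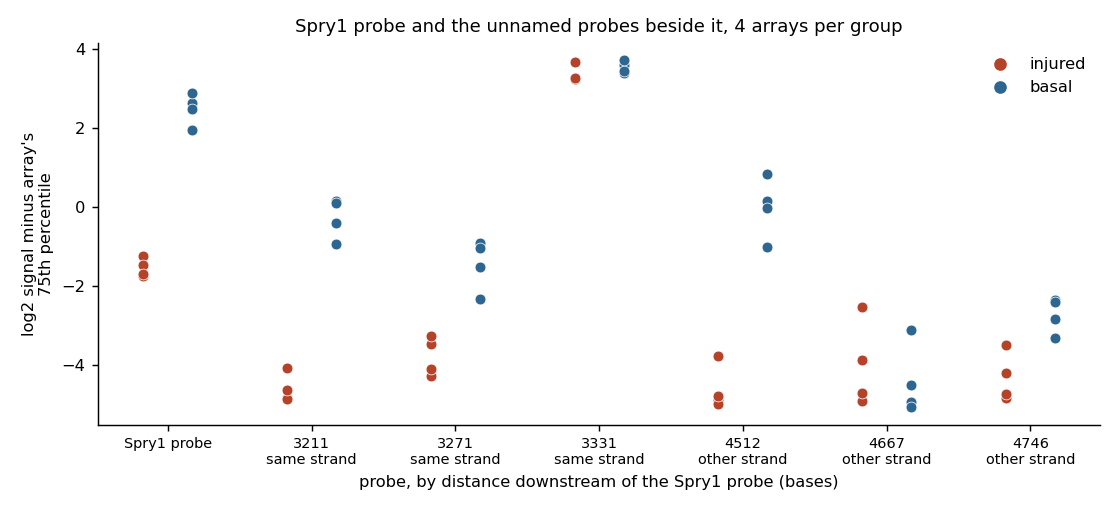
Level of the Spry1 probe and of 6 unnamed probes downstream of it on each array (log2 signal minus the array's 75th percentile), by distance in bases and strand, injured left of basal. The groups overlap for the probes at 3331 and 4667 bases, and the probes at 3211, 3271, 4512 and 4746 bases are lower on every injured array.

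Genes whose levels over the 8 arrays ran most alike with each tested member were named by Pearson's r among 13418 genes. For Spry1 these were Lin7a (r = 0.999), Cables1 (r = 0.998) and Myo6 (r = 0.997), all lower in injured arrays. These values are taken over both groups together and so include the difference between groups. For Spred1 they were Dnaja1 (r = 0.976), Mink1 (r = 0.963) and Mid1ip1 (r = 0.95). For Spred2 they were BC003965 (r = 0.979), Sdccag8 (r = 0.962) and Tnfrsf4 (r = 0.954), and for Spred3 Tmem161a (r = 0.98), Ptpdc1 (r = 0.97) and Rftn2 (r = 0.962).

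The genes around Sprouty and Spred were counted next, against a background of 35.5% higher and 24.7% lower over all genes tested. Of 22 tested genes of the Ras-ERK cascade and its adaptors, 9 rose, 8 fell and 5 did not pass, with a median difference of -0.13 against 0.17 over all genes tested. The Ras genes Hras (2.24 ± 0.18) and Nras (1.30 ± 0.33) rose, as did the MEK gene Map2k2 (1.57 ± 0.14). The Ras-related genes Rras and Mras were called lower, at -1.47 and -0.99. The scaffold Ksr1 fell by 2.67 and the adaptor Gab1 fell by 1.72 on the log2 scale, though Gab1 was at -0.12 in the authors' deposited table (adjusted p = 0.883 by limma).

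Of 17 tested genes whose proteins bind or modify Sprouty and Spred, 5 were higher, 4 lower and 8 not called, with a median of 0.21, which is near the shares of 35.5% higher and 24.7% lower over all genes. Egln3, a prolyl hydroxylase of the family that hydroxylates Spry2, was 13.0-fold higher, at 2.55 to 2.96 in injured arrays and -2.37 to 0.55 in basal arrays. The ubiquitin ligase Cbl rose by 1.57, the phosphatase 2A subunits Ppp2ca and Ppp2r1a by 1.14 and 0.74, and Egln2 by 0.70 on the log2 scale. Mknk2, related to the kinase that phosphorylates Spry2, fell by 1.65, Nf1, the neurofibromin that Spred proteins carry, fell by 0.89, Siah2 fell by 0.80 and Mknk1 fell by 0.54. Nf1 was at 0.085 in the authors' deposited table.

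Of 14 tested genes listed as other brakes on the pathway, 6 were lower, 3 higher and 5 not called. The median difference was -0.71, and over all genes 24.7% were lower and 35.5% higher. Il17rd, a membrane inhibitor of FGF signalling also called Sef, fell by 2.49, at -1.69 to -1.10 in injured arrays and 0.66 to 1.55 in basal arrays, though it was at -0.47 in the authors' deposited table (adjusted p = 0.545 by limma). Lrig1, which promotes loss of ErbB receptors, fell by 2.27. Lrig3, which passed the filter only through the basal group, was at least 1.33-fold lower, and in the authors' deposited table it was at -0.23 and not called. Pebp1, an inhibitor of Raf, rose by 1.29 and Dok1 by 0.38. Flrt2, whose role as a brake is not established, rose by 0.79. It had an adjusted p of 0.0497 by limma and was called in 9 of 21 alternatives.

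Of 19 tested genes listed as responding to ERK, 7 were lower, 6 higher and 6 not called. The median was -0.24, and over all genes 24.7% were lower and 35.5% higher. The list also holds Elk1 (lower, at -0.36) and Elk3 (not called), whose proteins ERK phosphorylates. Dusp4, among the higher genes, was bright enough for testing only in the injured group. The early genes Egr2, Egr1 and Fos fell by 3.70, 3.31 and 3.30. Ier3 was lower too, by a difference of -4.47 that rests on a group with 1 of 4 injured arrays above background. These genes are also on the dissociation stress list, of which 19 of 20 genes fell. Egr1 was at 4.95 to 5.26 in injured arrays and 8.02 to 8.91 in basal arrays. Fosl1 rose by 2.47 and Epha2, an ephrin receptor, by 2.25. Fosl1 had an adjusted p of 0.0359 by limma and was called in 13 of 20 alternatives. In the authors' deposited table Ier3, Egr2 and Epha2 were at -2.19, -1.87 and 1.04 and not called.

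Of 19 tested genes listed as receptors upstream of Ras, 10 were lower, 4 higher and 5 not called. The median difference was -0.61, and over all genes 24.7% were lower and 35.5% higher. Pdgfrb and Ret were at least 2.82-fold and 2.33-fold lower, each above background on 0 injured arrays and tested only through the basal group, and Pdgfrb is also a pericyte marker. Fgfr1, a main FGF receptor of satellite cells, fell by 2.10, at 5.96 to 6.65 in injured arrays and 8.13 to 8.64 in basal arrays, and Igf1r, above background on 2 of 4 injured arrays, had a difference of -1.64 but was at 0.36 in the authors' deposited table. Met, the receptor of hepatocyte growth factor, rose by 2.47, at 1.34 to 1.64 in injured arrays and -1.72 to -0.27 in basal arrays. Fgfrl1, which lacks the kinase domain of the other FGF receptors, rose by 1.04, and Kit was at least 1.07-fold higher. Kdr rose by 0.39, a call kept in 11 of 21 alternatives. It was lost without injured replicate 1, 3 or 4 and with quantile normalization, among others.

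**Figure D4:**
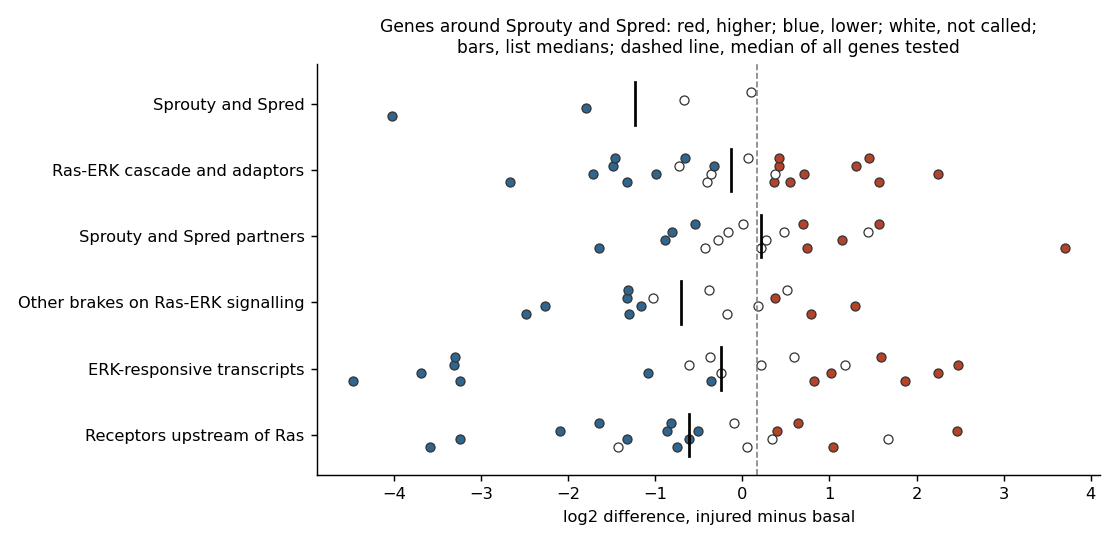
Log2 difference, injured minus basal, for each tested gene of the lists, with higher genes in red, lower genes in blue and uncalled genes in white; bars are list medians and the dashed line is the median of all genes tested, 0.17. Sprouty and Spred hold 2 lower genes, and each of the other 5 lists plotted holds genes called in both directions.

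Over the 5 lists 62 calls were made, and without basal replicates 1 and 2 there were also 62. Without injured replicates 2, 3 and 4, which leaves 1 injured array assumed to vary like the basal ones, 18 calls were made, and 1 of 4 members was called.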

How the data were processed

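The deposited scanner files hold spot intensity. Per the file headers the software was Agilent Feature Extraction, version 10.7.3.1. The authors' deposited table holds log2 values; its scale was read from the values, and how it was centred is not given in the sources used here. It served as an alternative only. From log2 processed signal each array's 75th percentile was subtracted, leaving out control spots and 1119 spots marked as outliers. Spots of a probe were averaged (55681 probes), and 25734 probes were named by accession, 2523 by symbol and 445 by synonym in the RefSeq gene table; 26979 were unnamed. A gene was its brightest probe on average and was tested if well above background on at least 3 of 4 arrays of a group. The injured and basal arrays entered a fit in limma (version 3.58.1; R 4.3.3, data.table version 1.17.8), two-sided, Benjamini-Hochberg over 13431 genes, threshold 0.05, of which 8671 had an unadjusted p under 0.05. The code was tested on simulated data.

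Members and lists were chosen with earlier results of these data known. Named genes were all members, up to 4 called genes of a list in its main direction and 2 in the other, and any completing a count of 5 or fewer; some of these are not reported here. Alternatives were quantile normalization, normexp (offset 50), median scaling, the authors' table, other filters, other probe rules, other variance models, a block for the replicate number, and fits without single arrays or sets of arrays. Same-numbered arrays deviated together with r of -0.00876 to 0.185, which does not show that the numbers pair the arrays. With 4 arrays per group it cannot exclude a pairing.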

Additional observations from a re-analysis of the deposited data

Results flagged for a closer look

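In 4 of 124 groups of 4 arrays that were checked, 1 array lay far from the other 3 of its group by Dixon's test, where chance gives about 1 in 20, and none of the 14 groups of Sprouty and Spred values was among them. Hras was at 1.15 on basal replicate 3, with the nearest basal array at 1.72. Pdgfrb was at -4.71 on injured replicate 4, with the nearest injured array at -4.89, both below background. Itga7, the integrin used in the sort, was at 1.6 on basal replicate 1, with the nearest basal array at 1.07. Col1a1 was at -1.08 on injured replicate 4, with the nearest injured array at -3.1.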

How the results depend on the processing

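Spry1 kept its direction and call in 22 of 22 alternatives, with an adjusted p of 1.32e-06 to 0.0101 by limma. Calls came to 4038 genes in the authors' deposited table, against 8078, 81.3% of them higher against 59.0%, with 1 member and 28 list genes called (9 of the cascade, 4 partners, 3 other brakes, 6 ERK-responsive transcripts and 6 receptors), and Spred1 and Spred3 turned to 0.14 and 0.43. The median of all genes was 0.48 there, against 0.06 to 0.17 with the other scalings. Testing each probe on its own called 17805 probes. Without injured replicates 2, 3 and 4 there were 1730 genes, 1 member and 18 list genes (6, 1, 2, 5 and 4 in the same order), from fewer samples, and Spred3 was -0.83. Spred2 turned to -0.17 without basal replicate 1 and to -0.17 without basal replicates 1 and 2. Leaving out 1 array at a time gave 7107 to 8301 genes, 2 to 3 members and 51 to 65 list genes, with 13 to 17 of the cascade, 9 to 10 partners, 7 to 10 other brakes, 10 to 14 ERK-responsive transcripts and 11 to 15 receptors. It gave -4.20 to -3.89 for Spry1, -0.87 to -0.46 for Spred1, -0.17 to 0.22 for Spred2 and -2.13 to -1.60 for Spred3. With the replicate number as a block 7628 genes and 2 members were called, with Spry1 at an adjusted p of 3.28e-04 and Spred3 at 0.0279. In the authors' table Igf1r and Nf1 turned to 0.36 and 0.085, and Kdr was -1.06 with the mean of all probes. A slide block was not run, since each slide holds 1 group. The causes were not tested. Signal over background limits Spry2, Spry3, Spry4 and Spred3.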
